A study of Homo sapiens with 16 samples.

Results

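Collagens, laminins and integrins were taken as the genes whose symbols fit COL with a chain number, LAMA, LAMB or LAMC with a number, ITGA with a number, ITGAV, or ITGB with a single digit. Of 13148 genes in the table, 53 fitted: 27 collagens, 10 laminins and 16 integrins. In 41 of them (20 collagens, 7 laminins and 14 integrins) none of the 16 libraries held a share of exactly 0, and the other 12 are described apart. The cells were 293S, an established line of the HEK293 family of human embryonic kidney cells, grown as an adherent layer and either left without treatment or given 1 mM sodium arsenite, an oxidative stressor, for 30 minutes. Both were spread over sucrose gradients and sequenced as 8 fractions each, with 1 library per treatment and fraction, so nothing here was replicated and differences are given as values, with no p-values.

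Each value is a share, which is how much of a gene's total, in percent, was found in 1 fraction of its gradient. Shares hold neither the level of an mRNA nor the depth behind it, so the label of the line could not be set against marker levels, and nothing here says how much of any chain the cells made. Weighting the fraction numbers by the shares gives the position of an mRNA. The labels do not give the end of the gradient at which fraction 1 lay. The median position of all 13148 genes was 4.54 without treatment and 3.10 with arsenite, a median shift of −1.46 fractions. The relative shift of a gene is its shift minus that median.

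Collagens are the main structural proteins of the extracellular matrix, built of chains that wind around each other in a helix with glycine at regular steps. Laminins are cross-shaped heterotrimers of an alpha, a beta and a gamma chain that, with type IV collagen, form the sheet of basement membranes. Integrins are alpha and beta heterodimers in the plasma membrane that bind these matrix proteins and link them to the actin cytoskeleton. All of them enter the endoplasmic reticulum as they are made, so their mRNAs are translated by ribosomes at its membrane.

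The start of the coding sequence is shown for 1 chain of each family, because it encodes the signal that routes the ribosome to that membrane, a feature the choice by name did not use. Capitals mark the start codon, and each line runs 5′ to 3′ over the first 60 bases.
COL4A1: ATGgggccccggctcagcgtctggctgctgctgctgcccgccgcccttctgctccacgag
LAMB1: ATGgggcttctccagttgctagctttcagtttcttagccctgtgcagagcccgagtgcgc
ITGB1: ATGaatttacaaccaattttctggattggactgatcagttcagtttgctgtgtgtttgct
Among the first 20 codons, the median number that encode alanine, valine, leucine, isoleucine, methionine, phenylalanine, tryptophan or cysteine was 13 over 27 collagens, 13 over 10 laminins and 11 over 16 integrins. In a later window of 20 codons, ending at codon 120, the medians were 5, 7.5 and 6. In each family the median was thus higher at the start than in the later window, but not every chain followed it. COL25A1 had 4 such codons at the start and 8 later, COL24A1 5 and 7, and COL27A1 10 and 11. COL5A1 had 9 in both windows and ITGA5 had 6 in both.

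The glycine repeat of collagens is shown for the chain with the lowest relative shift of those with no 0, COL4A1, and for the one with the highest, COL27A1. Each line holds the first 90 bases of the longest unbroken run of Gly-X-Y triplets, and capitals mark glycine codons, 10 of 30 in each.
COL4A1: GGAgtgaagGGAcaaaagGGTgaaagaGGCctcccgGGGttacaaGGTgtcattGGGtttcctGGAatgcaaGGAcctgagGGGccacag
COL27A1: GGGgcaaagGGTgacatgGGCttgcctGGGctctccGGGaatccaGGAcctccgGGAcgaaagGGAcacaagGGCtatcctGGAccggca
The sequences come from 1 transcript per gene of GENCODE release 29. Runs of at least 3 Gly-X-Y triplets covered 78.55% of the codons of COL4A1 and 53.2% of those of COL27A1. The longest run spanned 338 triplets in COL1A1 and COL5A1, but 40 in COL4A1 and 66 in COL4A2, whose helices are interrupted.

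Without treatment, the members lay far along the gradient, and fraction 7 stood out. Fraction 7 held the largest share of 25 of the 41 members with no 0, namely 14 of 20 collagens, 6 of 7 laminins and 5 of 14 integrins, against 15.9% of the 11625 genes with no 0. The median share in fraction 7 was 27.4% over collagens (lowest 2.57%, highest 45.7%), 25.3% over laminins (16.9% to 32.3%) and 21.6% over integrins (7.11% to 32.0%), against 8.06% over all genes with no 0. In fraction 8 laminins had a median of 15.9% and collagens one of 11.3%, whereas integrins had 4.08% and all genes 2.34%. Integrins were spread more evenly over fractions 6 and 7, with medians of 21.6% in each. The rules on the largest fraction and on the upper quartile of position, below, were chosen after the values were seen.

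The median position without treatment was 5.62 over laminins, 5.41 over collagens and 5.22 over integrins, all higher than the 4.57 of genes with no 0. An upper quartile of 4.97 over genes with no 0, passed by 25% of them by construction, was passed by all 7 laminins, 15 of 20 collagens and 8 of 14 integrins. Ranges of the families overlapped widely, from 4.998 to 5.88 in laminins, from 3.41 to 6.22 in collagens and from 4.48 to 5.47 in integrins. The distance of the collagen median from the median gene, 0.87 fractions, was 0.51 without fraction 7, and that of integrins, 0.68, was 0.34 without it. For laminins it was 1.08, and 0.72 without fraction 8.

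With arsenite, the members lay at lower fraction numbers but again above most genes. Fractions 6 to 8 held little, and fraction 7 had medians of 2.46% over collagens, 2.58% over laminins and 2.30% over integrins. Collagens and laminins now lay mainly in fractions 3 to 5, where their medians were between 22.9% and 27.0%, and in fraction 2 they had medians of 9.84% and 10.4%, against 24.1% over genes with no 0. Integrins peaked in fraction 3, at a median of 32.5%. Fraction 4 or 5 was the largest for 15 of 20 collagens, 4 of 7 laminins and 4 of 14 integrins, against 12.5% of genes with no 0. Median positions were 3.87 over collagens, 3.84 over laminins and 3.53 over integrins, compared with 3.10 over genes with no 0. The upper quartile of 3.49 with arsenite, again passed by 25% of genes, was passed by 17 collagens, 7 laminins and 7 integrins.

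**Figure D1:**
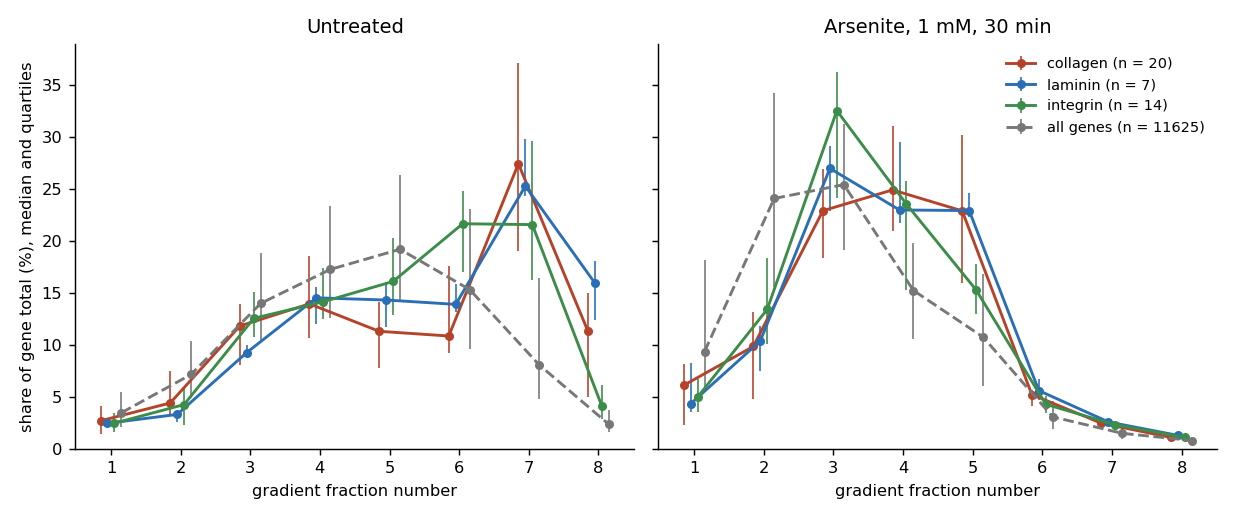
Share of a gene's total (%) in each gradient fraction without treatment (left) and with arsenite (right). Points are medians over members with no share of 0 and bars run from the lower to the upper quartile over genes, for 20 collagens, 7 laminins, 14 integrins and 11625 genes in all. Collagens and laminins peak in fraction 7 without treatment, at 27.4% and 25.3%, and lie mainly in fractions 3 to 5 with arsenite.

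Type IV collagens, the network-forming chains of basement membranes, included the 2 collagens furthest along without treatment. COL4A2 had the highest position without treatment, 6.22, above 99.8% of genes with no 0, followed by COL4A1 at 6.17. Of the COL4A1 total, 3.85%, 2.97%, 4.78%, 7.98%, 6.87%, 8.38%, 45.6% and 19.6% lay in fractions 1 to 8 without treatment. With arsenite its shares were 6.57%, 4.97%, 27.3%, 29.3%, 23.0%, 5.41%, 2.41% and 1.05%. Its main peak thus went from fraction 7 to fractions 3 and 4. Without treatment, COL4A2 had 2.11%, 3.26%, 4.44%, 7.95%, 7.41%, 10.9%, 45.7% and 18.3% of its total in fractions 1 to 8. The arsenite gradient held 4.83%, 4.24%, 17.6%, 34.8%, 29.1%, 5.02%, 2.62% and 1.75% in the same order. The profiles of these partner chains, which wind together in a common trimer, differed by 3.41 percentage points without treatment (the percentage of a chain's total that would have to change fraction to match the other), the smallest difference of all 190 pairs of collagens with no 0, whose median was 27.2. With arsenite they differed by 12.6 points, against a median of 22.4.

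COL4A5 and COL4A6, which also assemble together, had a second peak in fraction 4. The untreated shares of COL4A5 over fractions 1 to 8 were 2.76%, 4.92%, 14.1%, 17.8%, 12.9%, 8.14%, 27.6% and 11.8%. After arsenite the 8 values were 4.59%, 11.2%, 19.4%, 24.98%, 30.9%, 5.64%, 2.22% and 1.06%. Fraction 5 became its largest. In untreated cells the 8 fractions held 2.62%, 3.37%, 11.03%, 16.5%, 7.83%, 9.97%, 31.2% and 17.5% of COL4A6 in turn. Its arsenite shares were 2.33%, 4.11%, 23.3%, 19.5%, 37.7%, 8.97%, 2.85% and 1.26%. Fraction 5 held the largest share of COL4A6 too, and 50.8% of its total remained in fractions 5 to 8, against a median of 16.2% over genes with no 0. These chains differed by 11.1 points without treatment and 14.8 with arsenite. COL4A4 lay at 5.16 and 3.75, with a relative shift of 0.051.

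Fibrillar collagens, which form the cable-like fibrils of connective tissue, were divided. COL1A1, a chain of the most abundant collagen of bone and skin, lay at 5.84 without treatment and 3.65 with arsenite. Of the COL1A1 total, 1.53%, 1.65%, 13.5%, 6.34%, 5.90%, 22.0%, 41.5% and 7.66% lay in fractions 1 to 8 without treatment. With arsenite its shares were 9.52%, 15.4%, 21.1%, 22.2%, 23.2%, 4.22%, 3.13% and 1.22%. COL5A1, which helps to set fibril width, had a like peak of 40.6% in fraction 7 and lay at 5.996 and 3.86. COL3A1 lay at 5.18 and 3.55 with 2 peaks without treatment, 26.0% in fraction 4 and 19.5% in fraction 7.

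COL27A1 and COL24A1 are fibrillar chains of a separate branch of the family, and COL27A1 was unlike those above. Without treatment, COL27A1 had 0.836%, 10.9%, 15.9%, 30.2%, 23.4%, 11.3%, 5.90% and 1.52% of its total in fractions 1 to 8. The arsenite gradient held 0.834%, 11.04%, 18.5%, 25.2%, 37.0%, 4.26%, 2.06% and 1.12% in the same order. COL27A1 hardly changed place, at 4.30 without treatment and 4.13 with arsenite, and 42.2% and 44.4% of its total lay in fractions 5 to 8. It stood above 30.9% of genes with no 0 in the first gradient and above 97.1% in the second. COL24A1 lay at 4.68 without treatment, lower than COL1A1, COL5A1 and COL3A1, with 24.2% in fraction 5 and 17.7% in fraction 7. With arsenite it lay at 3.78, between COL1A1 (3.65) and COL5A1 (3.86).

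COL6A1 and COL6A2 are chains of type VI collagen, which makes beaded filaments around cells. The untreated shares of COL6A1 over fractions 1 to 8 were 1.51%, 3.53%, 11.04%, 9.20%, 9.64%, 24.3%, 35.4% and 5.35%. After arsenite the 8 values were 1.99%, 11%, 33.2%, 33.5%, 14.4%, 3.62%, 1.51% and 0.802%. Its peak in fraction 7 gave way to nearly equal shares in fractions 3 and 4. In untreated cells the 8 fractions held 1.25%, 8.10%, 12.6%, 10.2%, 13.9%, 24.7%, 25.3% and 3.98% of COL6A2 in turn. Its arsenite shares were 1.597%, 23.0%, 35.5%, 24.8%, 10.1%, 2.69%, 1.95% and 0.387%. COL6A2 lay at lower numbers than its partner in both gradients, at 5.23 and 3.37 against 5.63 and 3.68, and they differed by 11.8 points without treatment and 14.7 with arsenite. COL6A5, a later-found chain of the same type, had the lowest position of the 41 members, 3.41 without treatment and 2.50 with arsenite, with 15.4% and 30.9% of its total in fraction 1.

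Among the remaining collagens, COL7A1, the chain of the anchoring fibrils that fasten skin to its basement membrane, had its largest share in fraction 4 in both gradients. Of the COL7A1 total, 4.06%, 7.30%, 14.9%, 36.9%, 9.80%, 10.8%, 14.9% and 1.28% lay in fractions 1 to 8 without treatment. With arsenite its shares were 1.91%, 3.38%, 25.5%, 51.0%, 13.1%, 4.07%, 0.780% and 0.327%. Its position was 4.40 and 3.87. COL17A1, a membrane-spanning collagen of hemidesmosomes, lay at 5.70 without treatment and at 4.499 with arsenite, the highest of the 41 members there, with 59.0% still in fractions 5 to 8. COL12A1, which coats fibrils, lay at 5.33 and 4.41 and had 39.2% of its total in arsenite fraction 5. COL18A1, whose end fragment is endostatin, lay at 5.71 and 3.97.

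**Figure D2:**
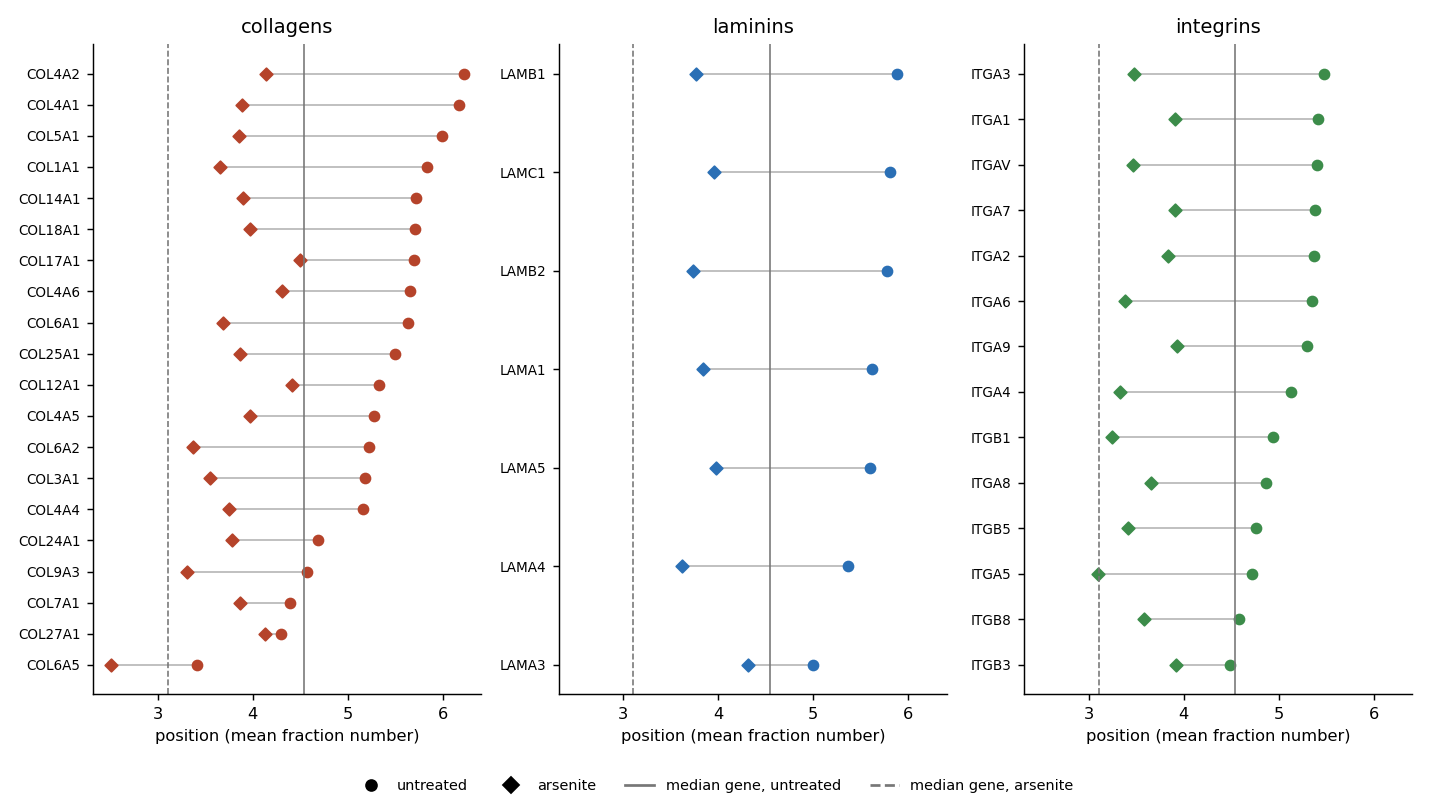
Position (mean fraction number) of each of the 41 members with no share of 0, without treatment (circles) and with arsenite (diamonds), ordered within each family by the untreated position. Grey lines mark the median gene at 4.54 without treatment (solid) and 3.10 with arsenite (dashed). All 41 lie further to the left with arsenite, and COL27A1 has the shortest step, from 4.30 to 4.13.

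Laminin chains resembled each other more than collagens did, with a median difference of 12.3 points over 21 pairs without treatment and 15.2 with arsenite. LAMB1 and LAMC1, the beta and gamma chains shared by several laminin trimers, were the closest pair in both gradients. Without treatment, LAMB1 had 2.06%, 2.10%, 9.26%, 12.4%, 10.6%, 13.4%, 30.5% and 19.7% of its total in fractions 1 to 8. The arsenite gradient held 4.33%, 10.4%, 33.4%, 20.9%, 22.9%, 4.64%, 2.54% and 0.933% in the same order. Its largest shares were in fraction 7 without treatment and in fraction 3 with arsenite. The untreated shares of LAMC1 over fractions 1 to 8 were 2.33%, 3.10%, 8.56%, 11.6%, 11.2%, 14.4%, 32.3% and 16.5%. After arsenite the 8 values were 4.06%, 8.75%, 28.4%, 23.0%, 23.8%, 7.44%, 3.30% and 1.28%. They differed by 4.66 points without treatment and 6.85 with arsenite.

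The alpha chains, which carry the domains that bind integrins, had less in untreated fraction 7 than LAMB1 and LAMC1 did. In untreated cells the 8 fractions held 2.82%, 3.74%, 7.27%, 14.5%, 14.3%, 17.4%, 24.1% and 15.9% of LAMA1 in turn. Its arsenite shares were 8.20%, 11.9%, 18.8%, 25.5%, 25.4%, 6.01%, 2.88% and 1.35%. LAMA1, the alpha chain of the embryonic laminin, differed from LAMB1 by 12.1 and 14.6 points. Of the LAMA5 total, 2.93%, 1.97%, 9.42%, 14.7%, 16.8%, 13.0%, 25.3% and 15.9% lay in fractions 1 to 8 without treatment. With arsenite its shares were 2.96%, 5.77%, 27.0%, 33.6%, 21.8%, 4.84%, 2.58% and 1.52%. LAMA5, the alpha chain of many adult basement membranes, differed from LAMB1 by 9.48 and 13.5 points. LAMB2, the other measured beta chain with no 0, lay at 5.78 and 3.73, and LAMA4, found in vessel walls, at 5.36 and 3.61.

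LAMA3, the alpha chain that ties epithelia to the basement membrane, stood apart from the other laminins with no 0. Without treatment, LAMA3 had 2.46%, 4.97%, 9.04%, 24.7%, 21.5%, 13.9%, 16.9% and 6.54% of its total in fractions 1 to 8. The arsenite gradient held 8.31%, 6.29%, 3.96%, 22.6%, 48.6%, 7.58%, 1.94% and 0.711% in the same order. It had the lowest position of the 7 without treatment, 4.998, and the highest with arsenite, 4.31, and its share in fractions 5 to 8 was 58.8% in both gradients.

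Integrin alpha and beta subunits differed in place. Without treatment the 10 alpha subunits with no 0 lay between 4.72 and 5.47 (median 5.36) and the 4 beta subunits between 4.48 and 4.94 (median 4.67), so the ranges overlapped only through ITGA5 at 4.72 and ITGA8 at 4.86. With arsenite the ranges overlapped more, from 3.10 to 3.93 over alpha and from 3.25 to 3.92 over beta subunits. ITGAV, the alpha subunit of vitronectin receptors, and its partner ITGB5 show this. The untreated shares of ITGAV over fractions 1 to 8 were 2.50%, 6.05%, 9.11%, 12.7%, 12.5%, 21.6%, 29.1% and 6.50%. After arsenite the 8 values were 6.94%, 16.6%, 35.7%, 17.7%, 14.3%, 5.09%, 2.84% and 0.867%. Its largest share was in fraction 7 without treatment. In untreated cells the 8 fractions held 1.83%, 5.13%, 11.6%, 21.5%, 28.4%, 22.0%, 7.11% and 2.46% of ITGB5 in turn. Its arsenite shares were 3.44%, 18.9%, 36.3%, 25.9%, 9.35%, 3.40%, 1.56% and 1.11%. ITGB5 had its largest share in fraction 5, and the profiles differed by 27.6 points without treatment but by 11.4 with arsenite, when both peaked in fraction 3. The medians over all 91 pairs of integrins with no 0 were 22.4 points without treatment and 20.4 with arsenite.

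ITGB1 is the beta subunit with the most alpha partners, and ITGA5 joins it in the fibronectin receptor. Of the ITGB1 total, 3.495%, 4.21%, 12.7%, 18.3%, 20.5%, 20.7%, 16.3% and 3.81% lay in fractions 1 to 8 without treatment. With arsenite its shares were 6.74%, 29.4%, 29.1%, 14.7%, 12.2%, 4.30%, 2.41% and 1.23%. Fractions 5 and 6 were about equal in the first gradient. Without treatment, ITGA5 had 3.33%, 13.1%, 14.3%, 10.6%, 15.1%, 25.3%, 16.2% and 2.02% of its total in fractions 1 to 8. The arsenite gradient held 4.68%, 34.3%, 32.0%, 13.1%, 10.46%, 3.19%, 1.499% and 0.820% in the same order. These subunits differed by 15.1 points without treatment and 7.76 with arsenite. The untreated shares of ITGA6 over fractions 1 to 8 were 2.43%, 3.28%, 10.2%, 10.8%, 20.8%, 24.7%, 22.8% and 5.01%. After arsenite the 8 values were 5.26%, 16.2%, 42.6%, 16.7%, 13.1%, 3.42%, 1.61% and 1.12%. ITGA6, a laminin receptor subunit, differed from ITGB1 by 12.1 and 16.5 points and lay at 5.35 and 3.38.

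ITGA3, another laminin receptor subunit, had the highest position of integrins with no 0 without treatment, 5.47, and lay at 3.48 with arsenite. The collagen receptor subunits ITGA1 and ITGA2 lay at 5.41 and 5.37 without treatment and at 3.91 and 3.84 with arsenite. ITGB3, the beta subunit of the platelet fibrinogen receptor, had the lowest position without treatment, 4.48, and the highest but for ITGA9 (3.93) with arsenite, 3.92. In untreated cells the 8 fractions held 1.34%, 7.24%, 12.4%, 35.7%, 19.4%, 14.3%, 7.39% and 2.22% of ITGB3 in turn. Its arsenite shares were 2.71%, 7.18%, 36.1%, 24.1%, 16.5%, 7.495%, 4.42% and 1.51%. Its main peak moved by a single fraction number, from 4 to 3. ITGB8, a subunit that activates latent TGF-beta, lay at 4.58 and 3.58, and ITGA8, a kidney integrin subunit, at 4.86 and 3.65.

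**Figure D3:**
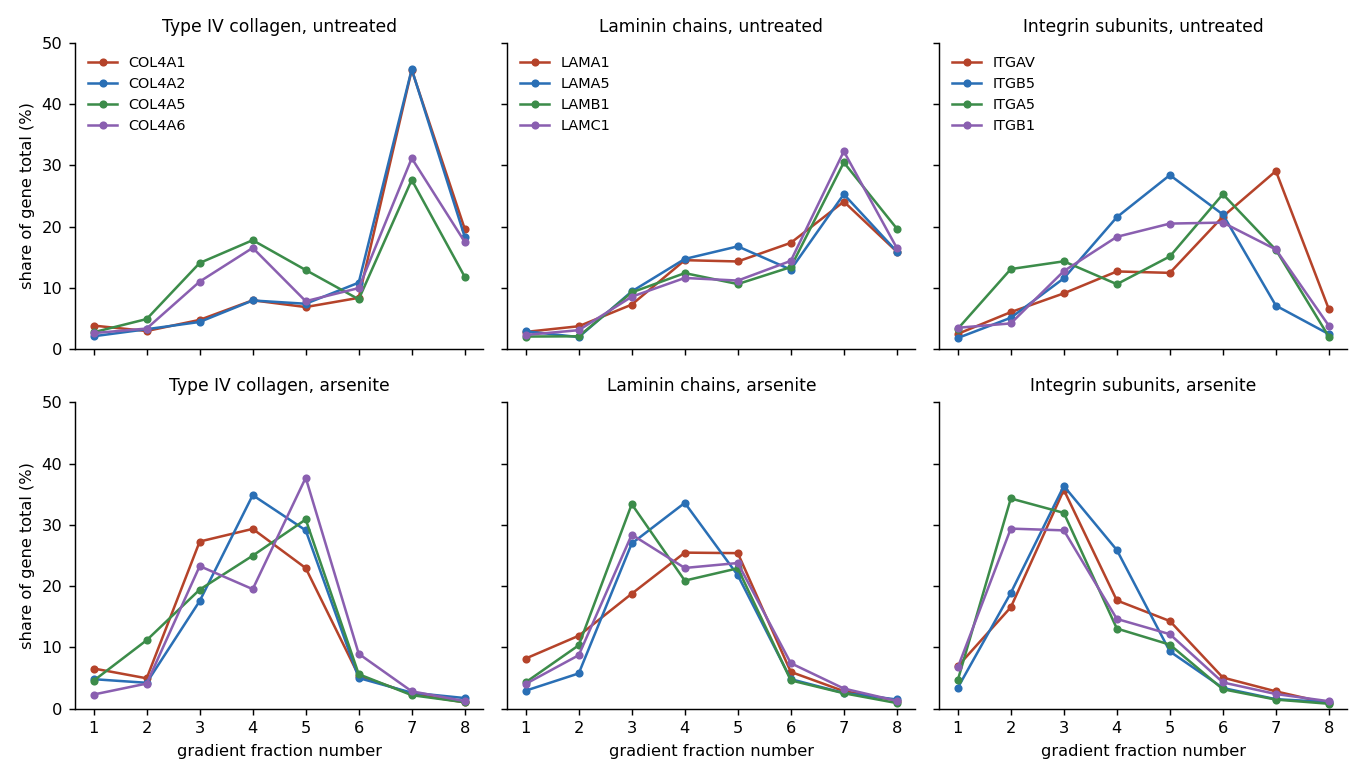
Share of a gene's total (%) by gradient fraction for 4 type IV collagens, 4 laminin chains and 4 integrin subunits, without treatment (top) and with arsenite (bottom), 1 library per point. COL4A1 and COL4A2 overlie each other without treatment with 45.6% and 45.7% in fraction 7, and ITGAV and ITGB5 peak apart without treatment and in the same fraction with arsenite.

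By their medians, collagens and integrins shifted about as far as the typical gene, and laminins somewhat further down. The rule for a move asked for a relative shift of 0.5 fractions or more, up or down, with a sign that no omission of a single fraction number from both gradients reversed. Of the 41 members with no 0, 7 moved higher, against 21.1% of genes with no 0, and 8 moved lower, against 25.4%, so both shares lay near the background. The median relative shift was −0.064 over collagens, −0.32 over laminins and −0.063 over integrins, and −0.036 over all genes with no 0. With single fractions left out, the collagen median ran from −0.37 without fraction 5 to 0.27 without fraction 7. Without fraction 7, 0 of the 41 met the rule for lower, and the 8 that had met it were at −0.21 (ITGA3) to −0.49 (LAMB1). Without fraction 8 the count was 0 too: the others of these were at −0.18 (LAMB2) to −0.49 (COL4A1), and COL1A1, still at −0.66, did not keep its sign with a further fraction left out. Size factors, by which each library was scaled to the same typical gene, gave medians of −0.66 over collagens, −0.95 over laminins and −0.080 over integrins, against −0.036 over all genes with no 0.

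Among collagens, the 4 that moved lower were the 4 furthest along without treatment. The members that moved lower were COL4A1 (relative shift −0.83), COL1A1 (−0.73), COL5A1 (−0.68), COL4A2 (−0.63), LAMB1 (−0.66), LAMB2 (−0.59), ITGA3 (−0.54) and ITGA6 (−0.51). ITGAV (−0.48), COL6A1 (−0.495) and LAMC1 (−0.40) did not meet the rule. Moved higher were COL27A1 (1.29), COL7A1 (0.93), COL24A1 (0.56), COL6A5 (0.55), COL12A1 (0.54), LAMA3 (0.77) and ITGB3 (0.90). COL27A1, COL7A1 and ITGB3 kept a relative shift of at least 0.5 under each alternative run. COL24A1 was at 0.19 with size factors, and COL12A1 and LAMA3 were negative there, at −0.14 and −0.19. LAMA3 was at 0.21 without fraction 5, COL12A1 at 0.18, COL24A1 at 0.31 and COL6A5 at 0.33 in their lowest values with a fraction left out. All 8 members that moved lower came within 0.5 of the median gene when 1 fraction was left out, COL4A1 at −0.45 being the furthest. ITGB8 (0.45), ITGA8 (0.25), LAMA5 (−0.17) and LAMA4 (−0.29) did not meet the rule.

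The shift depends on where an mRNA starts, since position without treatment is part of it. Over all genes with no 0 the Spearman correlation of relative shift with untreated position was −0.53 (n = 11625), and over the 41 members it was −0.76, in both cases across genes that share the same 16 libraries. All genes were therefore put in 20 equal bins of untreated position, and each member was set against the median of its bin. On that scale 39 of 41 members lay above 0, COL6A5 (−0.24) and ITGA5 (−0.036) being the exceptions, and the median was 0.43 over collagens, 0.44 over laminins and 0.33 over integrins, against −0.016 over all genes with no 0. The highest values were 1.10 for LAMA3, 1.10 for COL17A1, 1.09 for COL27A1 and 1.01 for COL12A1. Each of the 8 members called lower was above 0 here, from 0.011 for COL4A1 to 0.25 for LAMB2. The last bin is wide, from 5.57 to 6.74 with a median of 5.78, and holds 14 of the 41 members, so those at its far end are set against genes that started lower.

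**Figure D4:**
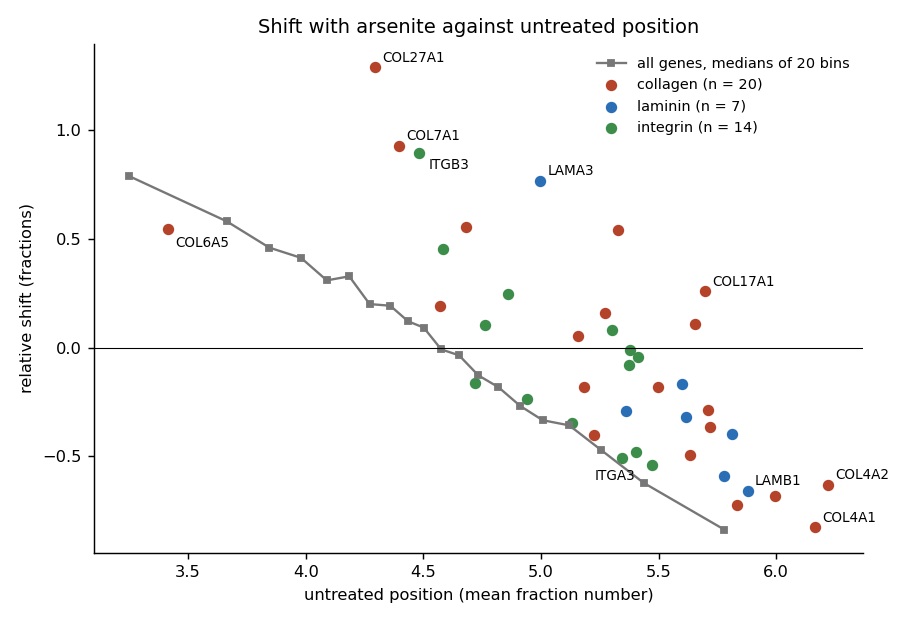
Relative shift (fractions, arsenite minus control minus the median gene) against untreated position (mean fraction number) for the 41 members with no 0. The grey line joins the medians of all genes in 20 equal bins of untreated position. Points lie above the line for all members but COL6A5 and ITGA5 when each is compared with its bin, and COL27A1 lies highest at 1.29.

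These are also long mRNAs. The median coding sequence was 5448 nt over the 7 laminins with no 0, 5062.5 nt over 20 collagens and 3145.5 nt over 14 integrins, against 1434 nt over 11540 genes with no 0 and a known length. Over all those genes, coding length had a Spearman correlation of 0.40 with untreated position, 0.70 with position under arsenite and 0.28 with relative shift. In 10 equal groups by coding length, median positions rose from 4.16 in the shortest to 5.03 in the longest without treatment, and from 2.20 to 3.84 with arsenite. The longest of the 10 groups, from 3582 nt, held 23 of the 41 members.

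Against genes of like coding length, the families stood out without treatment and much less with arsenite. All genes were put in 20 equal bins of coding length, which was decided on with the data in view. Untreated positions lay above the median of the bin for 32 of 41 members, by a median of 0.50 fractions over collagens, 0.55 over laminins and 0.41 over integrins. With arsenite 18 of 41 lay above it, and the medians were −0.015, −0.15 and 0.072. The relative shift on this scale was below 0 for 31 of 41, with medians of −0.33 over collagens, −0.70 over laminins and −0.34 over integrins. Thus the relative shifts had opposite signs against genes of like starting position and genes of like coding length. The last length bin ran from 4854 nt upward and held 18 members.

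**Figure D5:**
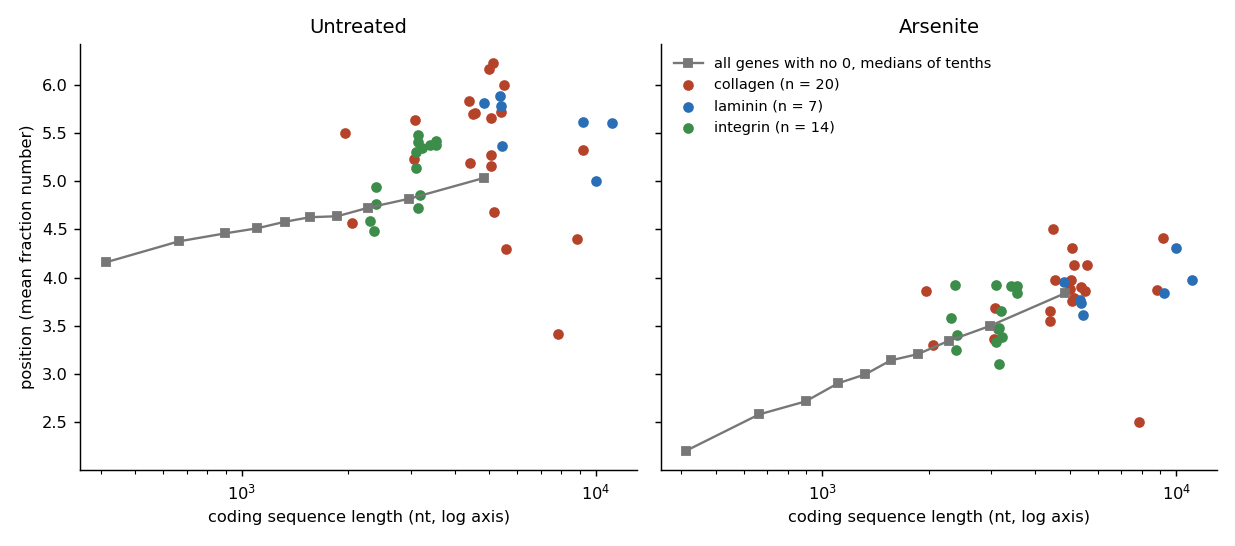
Position (mean fraction number) against coding sequence length (nt, log axis) without treatment (left) and with arsenite (right). Points are the 41 members with no 0, and grey squares are medians of all genes with no 0 in 10 equal groups of coding length. Most members lie above the grey line without treatment, whereas with arsenite they lie on both sides of it.

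Within families, length went with place in different ways. Over the 14 integrins coding length had a Spearman correlation of 0.69 with untreated position, the beta subunits having 2307 to 2397 nt and the alpha subunits 3096 to 3543 nt. Over the 20 collagens it was −0.18 with untreated position and 0.37 with position under arsenite. Over the 7 laminins it was −0.79 with untreated position, 0.46 with position under arsenite and 0.82 with relative shift. COL27A1 (5580 nt), COL7A1 (8832 nt) and COL6A5 (7833 nt) have longer coding sequences than COL4A1 (5007 nt) but lay lower without treatment. The percentage of codons in Gly-X-Y runs, from 8.13% in COL12A1 to 85.1% in COL9A3, had one of 0.11 with untreated position and −0.19 with relative shift. These correlations describe few genes that share all libraries.

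Members with a share of 0 were less certain, as a 0 may reflect few reads or a failed estimate, and a single library then weighs heavily. COL13A1, COL5A2, COL4A3, COL19A1 and LAMB3 were listed at 0 in 1 library each, COL2A1 in 2, COL11A2 in 3, COL9A2 in 4, LAMC3 and ITGA10 in 5, and ITGB4 in 7. Of the 12 members with a 0, 6 moved higher, among them COL11A2, COL19A1, COL4A3, COL9A2 and ITGA10, against 42.7% of the 1523 genes with a 0, and none moved lower, against 13.7%. ITGA10, a collagen receptor subunit, lay at 3.31 without treatment and 3.56 with arsenite, a relative shift of 1.70. ITGB4, the beta subunit of hemidesmosomes, was in 3 untreated fractions, with 42.0% in fraction 3, 41.8% in fraction 7 and 16.2% in fraction 8, and its relative shift of −0.31 ran from −1.90 to 0.61 when single fractions were left out. COL2A1, the collagen of cartilage, lay at 5.81 and 3.90, near the fibrillar chains COL1A1 and COL5A1.

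Chains encoded side by side in the genome can be compared too. In the RefSeq order of protein-coding genes on GRCh38.p14, COL4A1 neighbours COL4A2 on chromosome 13, COL6A1 neighbours COL6A2 on chromosome 21, and COL4A5 neighbours COL4A6 on chromosome X, all with no 0. Their profiles differed by 3.41, 11.8 and 11.1 points without treatment, each under the median of 27.2 over collagen pairs. With arsenite they differed by 12.6, 14.7 and 14.8 points, against a median of 22.4.

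Genes of collagen processing had a lower median relative shift than the collagens with the median gene as the reference. The list held enzymes and chaperones that build collagen, genes of its transport such as SEC23A and MIA3, and extracellular proteases such as BMP1. Of 26 collagen-processing genes with no 0, 11 moved lower and 2 higher, against the same backgrounds of 25.4% and 21.1%, and the median relative shift was −0.33 (−0.69 with size factors, close to the −0.66 of collagens, and −0.12 against genes of like starting position). SERPINH1, the collagen chaperone HSP47, lay at 5.42 without treatment and 2.85 with arsenite (−1.11), and P4HB, a subunit of prolyl 4-hydroxylase and protein disulfide isomerase, at 5.06 and 2.85 (−0.76). PPIB, a prolyl isomerase, had the lowest relative shift of the list, −1.26 (−2.09 with size factors), and FKBP14, another, the highest, 0.65. With arsenite SERPINH1 kept 10.1% of its total in fractions 5 to 8 and P4HB 10.1%, against 31.8% for COL4A1 and 38.5% for COL4A2. The 20 collagens with no 0 ran from 9.55% to 59.0% (median 31.8%), and the median over genes with no 0 was 16.2%. These percentages were not matched for coding length, which had a correlation of 0.70 with position under arsenite over all genes. Against genes of like coding length the median relative shift was −0.46 over the list and −0.33 over collagens.

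Other matrix proteins lay about as far along as laminins without treatment. Of 18 such genes with no 0, 6 moved lower and 2 higher, against the 25.4% and 21.1% of all genes with no 0, with a median position of 5.56 without treatment and 3.62 with arsenite. Their median relative shift was −0.27 (−0.64 with size factors, and 0.32 against genes of like starting position). Against genes of like coding length it was −0.59. FN1, fibronectin, the ligand of ITGA5 with ITGB1, lay at 5.66 and 3.61 (−0.60, −1.25 with size factors, and 0.24 against genes of like starting position). FBLN1, a fibulin, had the lowest relative shift, −1.22, and THBS3, a thrombospondin, the highest, 0.65. Among 23 genes of the adhesion machinery inside the cell, 9 moved lower and 2 higher, against the same 25.4% and 21.1%, with medians of 5.10 and 3.24. The median relative shift of this list was −0.12 (−0.37 with size factors, and 0.057 against genes of like starting position). With coding length as the reference, it was −0.51. TLN1, talin, which binds the integrin beta tail, lay at 6.33 and 4.22 (−0.65, −1.22 with size factors, and 0.19 against genes of like starting position). ILK, a pseudokinase at that tail, had the lowest relative shift, −1.29, and PTK2, focal adhesion kinase, the highest, 0.65 (1.39 with size factors).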

How the data were processed

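Per the labels' protocols, Trizol and a method named NSR were used on total RNA of the sucrose gradient fractions. The authors deposited 1 table with 16 library columns in the unit fraction, the share of a gene's total in each of 8 gradient fractions, and 3 score columns with the mean fraction numbers and their difference. The values cover exons of RefSeq genes, per the file headers, and the submitters' processing notes name hg19. How reads were aligned and counted, their strand, how reads of near-identical genes were split and how fractions were weighted against each other was not given in the sources used here. Depth is unknown, so no interval or floor is given.

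Samples were grouped by title into 16 groups of 1. Recomputed positions matched the deposited scores to within 8.9e-15. A share of 0 is reported as listed at 0. Relative shifts used the median of all 13148 genes. The call rule was also run on simulated smooth profiles with planted shifts larger than the threshold. That simulation held no error shared by a whole library, so it does not show how reliable the calls are here. The label for an unchanged value allowed 0.1 fractions or 1.5 times. Alternatives were size factors, 1 percentage point added to each share, the fraction number below which 50% of the total lies, thresholds of 0.25 and 1 fractions, each fraction left out, all members, 20 bins of untreated position and 20 bins of coding length. Coding transcripts came from GENCODE release 29, whose build is not hg19, so coordinates are left out. They matched 13026 genes (99.1%), 718 of them by a synonym, and all 53 members. Python 3.11.15, pandas 2.3.3, SciPy 1.17.1 and Biopython 1.88 were used.

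Members and lists were chosen with earlier results of these data known. All shares are given for chains of assemblies with no 0. The other named members are those with the highest and lowest untreated position and the 3 highest and 3 lowest relative shifts of each family. Pathway genes are those at the ends of each list and SERPINH1, P4HB, FN1 and TLN1. Further members, such as COL12A1, COL17A1 and COL3A1, and all shares of COL1A1, COL27A1, COL7A1, LAMA3 and ITGB3, were chosen after their values were seen. Neither COL1A2 nor COL6A3 was among the members found by symbol, so these chains were not analysed here. The values of 1 member with a 0 are not reported here, although counts over all members include it.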

Additional observations from a re-analysis of the deposited data

How the results depend on the processing

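Each treatment and fraction had 1 library, so stability across replicates is unknown. No paired analysis was possible because there are no replicates. With 1 percentage point added to each share, 1 of 15 family values moved by over 1.5 times, the integrins moved lower, from 2 to 1.

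With size factors the median untreated position relative to the median gene was 1.57 over collagens and 1.97 over laminins, the median relative shifts were −0.66 and −0.95, and the members moved higher and lower were 3 and 9 for collagens, 0 and 6 for laminins, and, moved lower, 4 for integrins. Of the members that had moved, COL12A1 and LAMA3 changed sign, to −0.14 and −0.19, and some that had not moved did so as well. Against bins of untreated position the median relative shift was 0.43, 0.44 and 0.33 for collagens, laminins and integrins. Of the members that had moved, COL1A1 (0.11), COL4A1 (0.011), COL4A2 (0.21), COL5A1 (0.15), LAMB1 (0.18), LAMB2 (0.25), ITGA3 (0.081), ITGA6 (0.12) and COL6A5 (−0.24) changed sign, and members that had not moved did so too. Against bins of coding length, in that order of families, the medians were 0.50, 0.55 and 0.41 for untreated position, −0.015, −0.15 and 0.072 for position with arsenite, and −0.33, −0.70 and −0.34 for the shift. The 50% point gave median relative shifts of 0.10 over collagens and −0.21 over integrins. With members listed at 0 included, the collagen median was 0.11 and 9 collagens, 2 laminins and 2 integrins moved higher. Among members with no 0, at a threshold of 0.25 fractions 7 collagens, 4 laminins and 4 integrins moved lower and 2 integrins higher. At 1 fraction the only member with no 0 that moved was 1 collagen (COL27A1), higher, and 0 laminins and 0 integrins with no 0 moved. The causes were not tested.

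Leaving out each fraction in turn, the median untreated position relative to the median gene ran from 0.51 to 1.11 over collagens, 0.72 to 1.35 over laminins and 0.34 to 0.89 over integrins. With arsenite it ran from 0.46 to 1.00, 0.52 to 1.00 and 0.20 to 0.65. The median relative shift ran from −0.37 to 0.27, −0.72 to −0.082 and −0.31 to 0.13. Counts moved higher ran from 2 to 6, 0 to 1 and 1 to 2, and moved lower from 0 to 7, 0 to 5 and 0 to 5.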
